A study of Mus musculus with 36 samples.

Results

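Among 36 mouse embryos profiled on an Illumina bead array, the 3 that carried replicate number 6 (Control 6, Ethanol 6 and Nicotine 6) lay apart from the rest on the second principal component. They are described here against the 15 embryos numbered 1 to 5, with the 18 numbered 7 to 12 set beside them. All 36 were whole male embryos of the inbred strain C57BL/6J, taken 9.5 days post coitum. Mothers in the Control group drank water, those in the Ethanol group voluntarily drank 10% (v/v) ethanol, and those in the Nicotine group voluntarily drank freebase nicotine at 100 µg/ml, both from 0.5 to 8.5 days post coitum. Each group held 12 embryos, numbered 1 to 12 in the sample titles, so every treatment contributed 1 embryo numbered 6 and 5 embryos numbered 1 to 5. The labels give neither the amount each mother drank nor what a number stands for. A shared litter, collection day, extraction or array slide therefore cannot be told apart from the number itself.

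A whole embryo at this stage holds a heart tube, a closing neural tube, somites, a tail bud and circulating primitive red cells, with fragments of yolk sac or placenta where dissection leaves them. Its cells divide fast, and each S phase needs a burst of replication-dependent histone mRNA, which comes from short genes without introns and ends in a stem-loop in place of a poly(A) tail. Mitochondria are assembled from proteins coded in the nucleus, among them the small subunits of the respiratory chain and the proteins of the mitochondrial ribosome, together with a few subunits coded by the mitochondrial genome. In whole-embryo RNA, fewer cells of a type and less RNA per cell cannot be told apart.

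The array gives 1 fluorescence intensity per probe and embryo. Of 45281 probes, 16927 reached an intensity of 32 on at least 12 arrays and were kept, and they covered 9683 named genes, each represented by its kept probe of highest mean level. Differences are given as log2(intensity + 16) of number 6 minus numbers 1 to 5 with treatment in the model, ± the standard error (SE) of the fit, with n = 3 against n = 15. On this scale the change of a dim probe is understated. Because the 3 embryos were picked for standing apart in these same values, their differences from numbers 1 to 5 are a description and no test of them is reported. A gene was called separated where all 3 embryos numbered 6 lay above the highest, or below the lowest, of the 15 and the difference was at least 1 on the log2 scale.

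The embryos were chosen by their scores on component 2, which held 12.1% of the variance. Control 6 scored 45.0, Ethanol 6 scored 54.4 and Nicotine 6 scored 39.4, whereas the 15 embryos numbered 1 to 5 scored from -26.6 to 16.2 (median -9.33) and the 18 numbered 7 to 12 from -16.7 to 7.47. On component 1, with 48.1% of the variance, the embryos numbered 6 scored -34.9 to -25.5, inside the range of numbers 1 to 5 (-44.5 to -17.9) and away from numbers 7 to 12 (24.5 to 41.4).

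**Figure D1:**
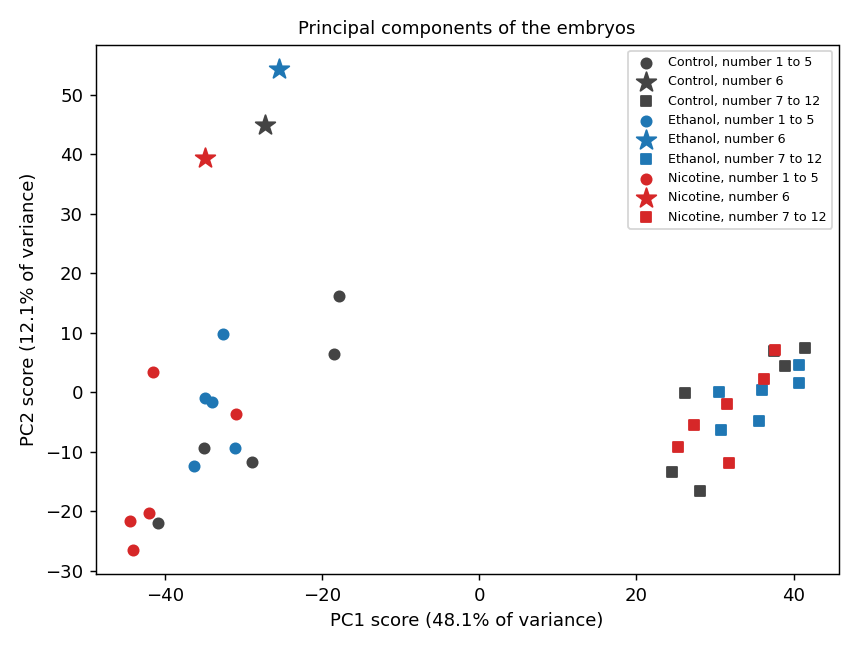
Scores of the 36 embryos on principal components 1 and 2 (unitless), from log2(intensity + 16) of 16927 kept probes, with 1 symbol per embryo, colour for treatment and shape for the set of replicate numbers. The 3 stars, number 6 of each treatment, score 39.4 to 54.4 on component 2, and no other embryo exceeds 16.2.

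Among the genes whose values did not overlap, more were lower than higher in number 6, although over all 9683 genes 5027 differences were above 0 and 4656 below. Of the 16927 probes, 153 (0.904%) were separated higher and 355 (2.1%) lower. The count higher rested on single embryos: it was 301 probes without Control 6 and 74 without Nicotine 6, and 270 or 49 when 1 or 64 replaced the added constant of 16, whereas the count lower was 395, 420, 469 and 175 under the same changes. Of the 9683 genes, 206 (2.13%) were separated lower and 48 (0.496%) were separated higher. Without the limit on size, 1028 genes (10.6%) lay wholly below and 807 (8.33%) wholly above the 15. For background only, limma gave an adjusted p under 0.05 for 6445 of the 16927 probes (38.1%), and nothing is read from that count. The genes nearest the limit of 1 were Adss at 1.0 and Tdg at 0.9988 on the higher side, and Sprr2a1 at -1.0001 and Ubl4a at -0.9982 on the lower side.

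The 3 embryos had been chosen for lying the same way on component 2, so a likeness of their deviations follows from that choice and is given as a description. The deviation of each from the mean of numbers 1 to 5 of its own treatment was computed for all 16927 probes, so that no 2 deviations shared an array. Across probes, which are not independent replicates, the deviations of Control 6 and Ethanol 6 correlated at r = 0.770, those of Ethanol 6 and Nicotine 6 at 0.749 and those of Control 6 and Nicotine 6 at 0.609. All 3 embryos lay above their own treatment mean for 33.9% of probes and below it for 28.6%. The SD of the deviations over probes was 0.432 in Control 6, 0.489 in Ethanol 6 and 0.535 in Nicotine 6, so Nicotine 6 lay farthest from its group and Control 6 nearest. Deviations from the means of all 12 embryos of a treatment correlated in every one of the 36 same-number pairs, with a mean of 0.589 over all and of 0.786 for number 6, and with up to 0.803 for number 11.

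Histone genes made up 15 of the 206 genes separated lower. Over all genes 2.13% were separated lower and 10.6% lay wholly below. Of 48 replication-dependent histone genes listed, 41 were measured, 38 had a difference below 0, 27 lay wholly below numbers 1 to 5 and none was separated higher. Their median difference was -0.82, against 0.02 over all genes. Within treatments that median was -0.55 in Control 6, -1.03 in Ethanol 6 and -0.99 in Nicotine 6.

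H2ac21, which codes for a histone H2A, had an intensity of 1314 in Control 6, 1495 in Ethanol 6 and 1304 in Nicotine 6, against 2105 to 5099 (median 4094) in numbers 1 to 5. The difference was -1.49 ± 0.18, and numbers 7 to 12 had a median of 3199. H2ac11, another H2A gene, read 1705, 2125 and 1995 in the same order against 3150 to 6084, a difference of -1.27 ± 0.15. H2ac8 was dimmer, at 42.2, 34.7 and 72.4 against 109 to 239, a difference of -1.48 ± 0.21. At all 3 probes every embryo numbered 6 lay below every embryo numbered 1 to 5. Histone genes are near-identical copies of each other, so a probe may read more than 1 of them and the assignment to a single copy is uncertain.

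The promoters of these genes are shown because the histone genes share sequence features that the choice of embryos did not use. Each covers 250 bases before to 50 after the gene's start in the RefSeq annotation of GRCm38.p6, printed on the gene's strand, with TATAAA and CCAAT on either strand in capitals. H2ac21 is at chr3:96219635-96219934 (plus strand) and H2ac8 at chr13:23571171-23571470 (minus strand). Cox7b, a respiratory chain gene that was also lower, is at chrX:106015450-106015749 (plus strand). Sec23a, at chr12:59011968-59012267 (minus strand), and Hif1a, at chr12:73907617-73907916 (plus strand), were the named separated genes with the highest differences.
H2ac21: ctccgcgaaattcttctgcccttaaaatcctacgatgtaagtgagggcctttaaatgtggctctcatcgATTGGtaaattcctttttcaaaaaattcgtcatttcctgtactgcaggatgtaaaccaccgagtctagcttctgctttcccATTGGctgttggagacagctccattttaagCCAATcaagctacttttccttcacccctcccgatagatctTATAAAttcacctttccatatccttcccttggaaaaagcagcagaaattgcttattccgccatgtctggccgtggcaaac
H2ac8: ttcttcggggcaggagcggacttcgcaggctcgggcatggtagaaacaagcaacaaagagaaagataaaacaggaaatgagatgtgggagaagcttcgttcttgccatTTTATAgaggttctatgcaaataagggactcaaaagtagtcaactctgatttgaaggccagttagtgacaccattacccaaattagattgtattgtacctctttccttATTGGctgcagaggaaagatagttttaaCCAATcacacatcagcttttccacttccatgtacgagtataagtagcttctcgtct
Cox7b: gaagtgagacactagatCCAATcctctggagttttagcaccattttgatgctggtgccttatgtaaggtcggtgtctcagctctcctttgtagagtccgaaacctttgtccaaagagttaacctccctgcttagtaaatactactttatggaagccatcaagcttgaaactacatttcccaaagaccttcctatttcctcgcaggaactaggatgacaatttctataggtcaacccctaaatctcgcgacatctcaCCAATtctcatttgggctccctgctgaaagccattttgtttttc
Sec23a: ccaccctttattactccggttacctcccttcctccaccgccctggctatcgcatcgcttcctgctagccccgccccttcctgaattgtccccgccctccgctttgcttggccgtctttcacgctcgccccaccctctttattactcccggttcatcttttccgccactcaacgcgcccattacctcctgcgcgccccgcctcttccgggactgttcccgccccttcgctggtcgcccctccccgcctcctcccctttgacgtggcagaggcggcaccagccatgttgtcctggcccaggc
Hif1a: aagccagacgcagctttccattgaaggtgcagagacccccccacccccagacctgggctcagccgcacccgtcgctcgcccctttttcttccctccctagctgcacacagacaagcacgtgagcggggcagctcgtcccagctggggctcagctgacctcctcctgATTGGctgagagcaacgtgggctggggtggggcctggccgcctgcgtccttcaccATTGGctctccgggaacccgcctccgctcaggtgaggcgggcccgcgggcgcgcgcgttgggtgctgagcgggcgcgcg

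On either strand both histone promoters hold 1 TATAAA, with 3 CCAAT in H2ac21 and 2 in H2ac8. The match in H2ac8 is TTTATA, which is TATAAA on the opposite strand, and the gene's own strand holds none. A match on the opposite strand may belong to a neighbouring gene, and all shares below count both strands. Cox7b holds 2 CCAAT and no TATAAA, Hif1a holds 2 CCAAT and no TATAAA, and Sec23a holds neither. Promoters in the RefSeq table matched 7868 of the 9683 genes, among them 38 histone genes. TATAAA occurred in 60.5% of the 38 histone promoters and in 6.99% of all 7868, and CCAAT in 81.6% and 39.2%. The median GC content was 45.2% in the histone promoters and 61.3% over all. CCGGAAG was searched too, also on both strands, and occurred in 37.8% of 37 promoters of the respiratory chain and mitochondrial ribosome lists, in 0 of the 38 histone promoters and in 18.9% of all. Among the 40 promoters of genes separated higher the shares were 2.5% for TATAAA, 45.0% for CCAAT and 20.0% for CCGGAAG. Among the 174 promoters of genes separated lower other than histones they were 9.2%, 46.0% and 28.2%. The median GC content was 65.0% in the former and 58.7% in the latter. The TATAAA and CCAAT shares of the histone promoters were thus not those of the other genes separated lower. A match is a stretch of letters, not a known binding site.

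Nuclear genes for mitochondrial proteins were the second large group on the lower side. The shares over all genes were 10.6% wholly below, 8.33% wholly above and 2.13% separated lower. Of 29 measured genes of oxidative phosphorylation (33 listed), 26 were below 0, 22 lay wholly below and 6 were separated lower, while 1 lay wholly above. The median was -0.67, and the medians within treatments were -0.69 in Control 6, -0.74 in Ethanol 6 and -0.61 in Nicotine 6. The summed intensity of the 29 was 117160 in Control 6, 114069 in Ethanol 6 and 124330 in Nicotine 6, against 154785 to 180688 in numbers 1 to 5 and 151010 to 168651 in numbers 7 to 12. All 3 sums lay below all 33 others.

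Cox7b and Cox7a2 code for small subunits of cytochrome c oxidase, and Atp5e for the epsilon subunit of ATP synthase. Cox7b read 35.995 in Control 6, 43.6 in Ethanol 6 and 43.1 in Nicotine 6 against 71.7 to 227 (median 115) in numbers 1 to 5, a difference of -1.29 ± 0.25. Cox7a2 read 323.2, 323.4 and 437.9 against 660 to 1194, a difference of -1.22 ± 0.13, and Atp5e read 112, 127 and 185 against 227 to 699, a difference of -1.28 ± 0.24. For each of the 3 the embryos numbered 6 did not overlap numbers 1 to 5. They differed in their place beside numbers 7 to 12: the median there was 76.7 for Cox7b, but 259 for Cox7a2 and 98.7 for Atp5e, below the embryos numbered 6.

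The mitochondrial ribosome showed the same order, beside the 10.6% of all genes wholly below and the 2.13% separated lower. Of 19 measured genes (20 listed) 18 were below 0, 12 lay wholly below and 1 was separated, with a median of -0.63; without Nicotine 6, 3 were separated. The separated gene was Mrps21, a protein of the small subunit, at 799, 744 and 1197 in Control 6, Ethanol 6 and Nicotine 6 against 1975 to 2922 in numbers 1 to 5 (-1.40 ± 0.12) and a median of 2528 in numbers 7 to 12. Transcripts coded by the mitochondrial genome did not share the shift: 5 of 18 were measured, 3 were above and 2 below 0, and none had all 3 embryos outside the range of numbers 1 to 5. COX2, a catalytic subunit of cytochrome c oxidase, differed by -0.36 ± 0.16 and ATP6, a subunit of ATP synthase, by -0.22 ± 0.12.

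The rest of the 12 lowest named genes among those separated lower follow; genes with overlap, such as Ttr, had differences lower still. Slirp, which binds and stabilises mitochondrial mRNA, read 605 in Control 6, 503 in Ethanol 6 and 937 in Nicotine 6 against 1781 to 3847 (median 2549), a difference of -1.96 ± 0.16, while a second probe gave -1.06 with overlap. Pet100, an assembly factor of cytochrome c oxidase, read 260, 294 and 512 against 597 to 1814 (-1.61 ± 0.25). Ndufaf8, an assembly factor of complex I, read 151, 158 and 177 against 414 to 672 (-1.54 ± 0.12). Every embryo numbered 6 was below all 15 at these representative probes. In numbers 7 to 12 the medians of Pet100 (1022) and Ndufaf8 (520) were near those of numbers 1 to 5 (1124 and 479), while that of Slirp was lower, at 1805.

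Pramel4, of the PRAME-like family, read 52.0, 72.8 and 103 against 120 to 751 in numbers 1 to 5 (-1.97 ± 0.37). Dpm3, which anchors the enzyme that makes dolichol-phosphate mannose, read 355, 409 and 486 against 916 to 1609 (-1.61 ± 0.12). Csnk2a1, a catalytic subunit of casein kinase 2, read 154, 165 and 141 against 358 to 1077 (-1.80 ± 0.21), but 2 further probes of the gene gave -0.96 and -0.11. Pramel4 belongs to a family of close copies, so its probe may read relatives.

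Apoc1, an apolipoprotein, differed by -1.66 ± 0.43, and a second probe of it gave -1.12. Cep295, a protein of centrioles, differed by -1.48 ± 0.23 while its second probe gave 0.34, so its direction depends on the probe. Its values in the same embryos were 27.7, 37.2 and 25.2, also near that limit. Rab26os, a noncoding RNA antisense to Rab26, differed by -1.51 ± 0.20, and Snhg18, a host of small nucleolar RNA, by -1.47 ± 0.19. Over all genes separated lower, 59 had further kept probes, and 61 of those 72 probes were also below 0, with a median of -0.98.

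Cytosolic ribosomal proteins had a median near 0 but a low summed intensity. Of 28 measured (41 listed), 16 were below and 12 above 0, with a median of -0.04. Beside 10.6% of all genes, 7 of them lay wholly below, and none of them was separated. Their summed intensity was 297999 in Control 6, 315147 in Ethanol 6 and 315222.5 in Nicotine 6, all below the 315743 to 335602 of numbers 1 to 5, while numbers 7 to 12 ran from 302244 to 332686. Rpl30, of the large subunit, read 2359, 2750 and 2822 (Control 6, Ethanol 6, Nicotine 6) against 4393 to 5327 (-0.88 ± 0.07), with a further probe at -1.12, and Rps15, of the small subunit, read 5648, 6870 and 6484 against 8992 to 11030 (-0.65 ± 0.08). Ribosomal protein genes have many processed copies in the genome, so their probes may read more than 1 locus. Beside a background of 10.6% of all genes wholly below and 8.33% wholly above, 7 of 18 antioxidant genes lay wholly below and none above (median -0.22), among them Txn1, coding for thioredoxin (-0.85 ± 0.15). On the same background, 5 of 19 proteasome genes lay wholly below and 1 wholly above. Psmb5, a catalytic core subunit, differed by -0.67 ± 0.13 and Psmd1, a large subunit of the cap, by 0.52 ± 0.08, with further probes at 0.45 and -0.54, so the direction of Psmd1 depends on the probe.

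**Figure D2:**
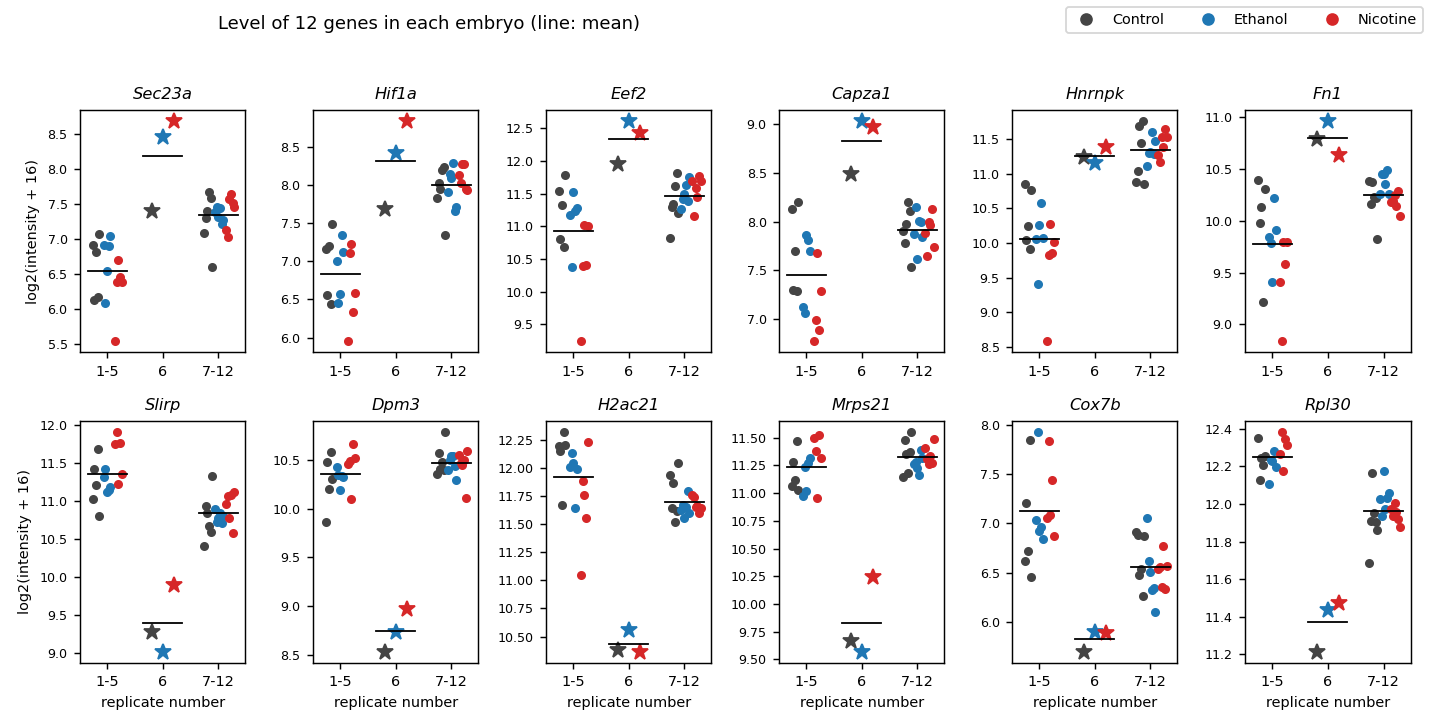
Level of 12 genes in each embryo as log2(intensity + 16), by set of replicate numbers (horizontal axis) and treatment (colour), with stars for number 6 and a line at each set's mean. In every panel the 3 stars lie outside the points of numbers 1 to 5, and the fitted difference is at least 1 in all but Rpl30 (-0.88).

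Genes separated higher were fewer and spread over many functions. Sec23a, a coat protein of vesicles that leave the endoplasmic reticulum, led them: 153 in Control 6, 338 in Ethanol 6 and 397 in Nicotine 6, against 30.6 to 119 (median 77.2) in numbers 1 to 5, a difference of 1.65 ± 0.28. Hif1a, the oxygen-regulated transcription factor, read 190, 326 and 440 against 46.1 to 164 (1.48 ± 0.28). Eef2, the elongation factor that moves the ribosome along the mRNA, read 3964.5, 6222 and 5480 against 592 to 3500 (1.41 ± 0.32), and its 2 other probes gave 1.29 and 1.37. In each of the 3 genes Control 6 was the lowest of the embryos numbered 6 and the nearest to numbers 1 to 5. Numbers 7 to 12 also lay above numbers 1 to 5, by 0.80 for Sec23a, 1.16 for Hif1a and 0.54 for Eef2 on the log2 scale.

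Control 6 had the lowest intensity of the 3 in each of the 12 highest named genes among those separated higher. Capza1, which caps actin filaments, read 343, 507 and 487 against 93.5 to 278 in numbers 1 to 5 (1.38 ± 0.24). Slc25a36, a mitochondrial carrier of pyrimidine nucleotides, read 211, 314 and 294 against 47.2 to 184 (1.32 ± 0.21), but its further probes gave 0.48 and 0.37 with overlap. Gulp1, an adaptor in the engulfment of dying cells, read 70.2, 149 and 180 against 19.1 to 69.8 (1.30 ± 0.24), so that Control 6 cleared the range by less than 1 unit of intensity. Ncoa4, the receptor that directs ferritin to breakdown, read 261, 307 and 422 against 60.0 to 189 (1.30 ± 0.23), and its further probes gave 1.06 and 1.07. Numbers 7 to 12 minus 1 to 5 gave 0.46 for Capza1, 0.75 for Slc25a36, 0.94 for Gulp1 and 0.49 for Ncoa4.

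The other 5 of these 12 genes follow. Ddx5, an RNA helicase of splicing and transcription, differed by 1.25 ± 0.34, and Mex3c, an RNA-binding ubiquitin ligase, by 1.35 ± 0.24. Klhl9, an adaptor of cullin ubiquitin ligases, differed by 1.40 ± 0.36 with a second probe at 0.84. Cop1, a ubiquitin ligase, differed by 1.32 ± 0.28 and Asb4, which has ankyrin repeats and a SOCS box, by 1.30 ± 0.39, but their further probes gave 0.05 and -0.01 for Cop1 and 0.0045 for Asb4. Numbers 7 to 12 minus 1 to 5 gave 1.22 for Ddx5, 0.99 for Mex3c, 1.15 for Klhl9 and 1.17 for Cop1, but -0.14 for Asb4. Over all genes separated higher, 23 had further kept probes, and 31 of those 40 probes were above 0, with a median of 0.47, a smaller share of the main difference than on the lower side. The lowest of the 15 was Nicotine 1 for Eef2, Klhl9, Mex3c, Sec23a and Ddx5. Without Nicotine 1, 120 probes in place of 153 were separated higher and 361 in place of 355 lower.

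Splicing and RNA-binding genes had the highest median of the lists in number 6. Their median was 0.38 in numbers 7 to 12 minus 1 to 5 too, so this level was not particular to number 6. Among all genes 8.33% lay wholly above, 10.6% wholly below and 0.496% were separated higher. Of 21 measured (24 listed), 19 were above 0, 9 lay wholly above and 1 wholly below numbers 1 to 5, with a median of 0.40. Without Control 6, 4 were separated in place of 2. The separated members were Ddx5 and Hnrnpk, an abundant RNA-binding protein, which read 2415, 2272.5 and 2667 against 368 to 1826 (1.21 ± 0.29). Numbers 7 to 12 had a median of 2601 for Hnrnpk, level with number 6, and its further probes gave 0.28 and -0.09. Of 24 extracellular matrix genes 21 were above 0 (median 0.27), and 3 lay wholly above, a share near the 8.33% of all genes. Fn1, coding for fibronectin, was separated at 1753, 1980.5 and 1581 against 442 to 1332 (1.02 ± 0.22), while its further probes gave 0.55, 0.58 and 0.86 with overlap. Without Ethanol 6 or without Nicotine 6 no matrix gene was separated, and without Control 6 there were 2.

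Genes of the cell cycle did not follow the histones. The background was 8.33% of all genes wholly above and 10.6% wholly below. Of 23 measured, 15 were above 0, 5 lay wholly above and 1 wholly below, with a median of 0.17. Top2a, the DNA topoisomerase of dividing cells, read 4003, 4680 and 3951 against 2109 to 3312 (0.70 ± 0.11), but its further probes gave -0.38 and 0.08, so its direction depends on the probe. Ubiquitously expressed reference genes had a median of 0.06 over 11 genes. At none of their representative probes did all 3 embryos lie outside the range of numbers 1 to 5. A further probe of B2m, a gene of this list, gave -0.42 with all 3 embryos below the 15. The summed intensity of the list, 83712 to 84891 in number 6, lay within the 75578 to 84937 of numbers 1 to 5.

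**Figure D3:**
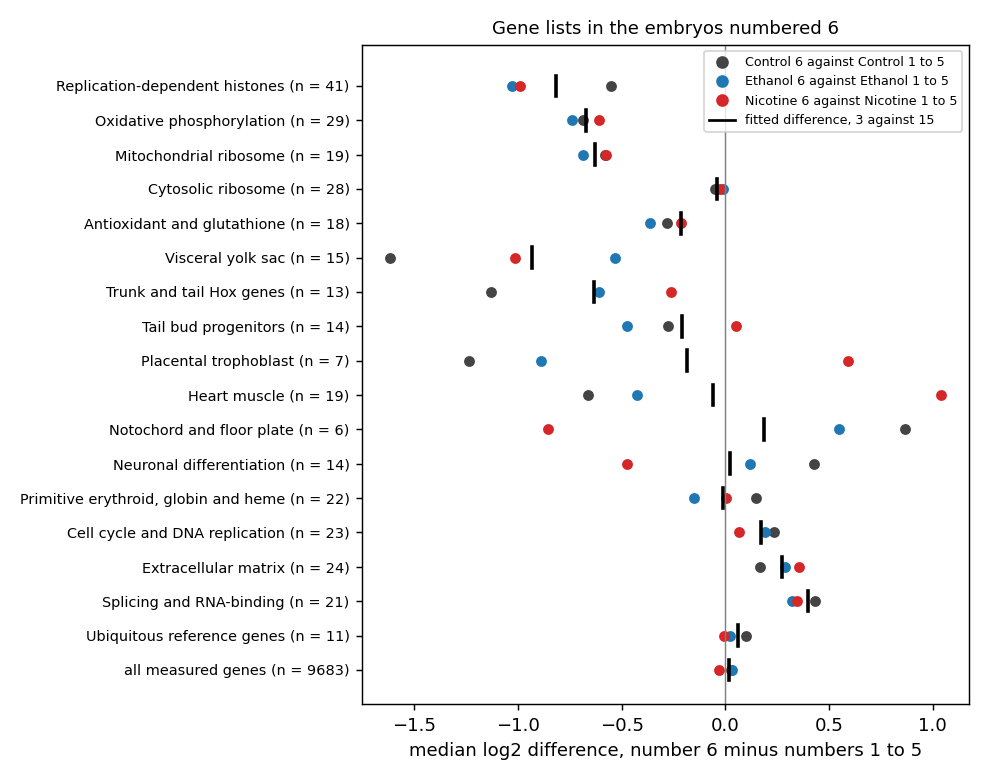
Median log2 difference of number 6 minus numbers 1 to 5 over the genes of 17 lists and of all genes (horizontal axis), with a dot for each treatment's own embryo and a bar for the fitted difference of 3 against 15. The 3 dots lie close together for the mitochondrial lists, on 1 side of 0 from -1.03 to -0.55 for histones, and on both sides of 0 for heart muscle and for notochord and floor plate. The heart muscle dot of Nicotine 6 is taken against a mean that includes Nicotine 3, which was very low in these genes.

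Across 59 lists with at least 5 measured genes, the median difference was at or below -0.3 in 7, at or above 0.3 in 2 and between these limits in 50. Only 8 of the 59 lists held any separated gene. The lists at or above 0.3 were splicing and RNA-binding and the targets of Hedgehog signalling (0.39), of which none of 9 measured genes had all 3 embryos outside the range of numbers 1 to 5. In numbers 7 to 12 minus 1 to 5 the medians were 0.38 for splicing and RNA-binding and 0.44 for Hedgehog targets. Below -0.3 were, beside histones and the nuclear mitochondrial lists, those for visceral yolk sac, trunk and tail Hox genes, retinoic acid (-0.37) and nuclear long noncoding RNA (-0.33).

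The medians of several tissue marker lists differed in sign between the 3 embryos, while those of the histone and nuclear mitochondrial lists did not. Of 19 measured heart muscle genes (24 listed) none had all 3 embryos outside the range of numbers 1 to 5. Nicotine 6 had a median of 1.04 for them, Control 6 one of -0.66 and Ethanol 6 one of -0.42. The 1.04 is taken against a mean that includes Nicotine 3, which was very low in these genes. It was not recomputed without Nicotine 3, so its sign may rest on that embryo. Their summed intensity was 54663 in Nicotine 6, 34998 in Control 6 and 35184 in Ethanol 6, against 1505 to 74293 (median 56667) in numbers 1 to 5. The lowest of these ranges came from Nicotine 3, in which Nppb, a cardiac natriuretic peptide, read 5.91 and Myh7, a heavy chain of cardiac myosin, 3.76. Leaving Nicotine 3 out changed no lead count by over 1.5 times: 175 probes in place of 153 were then separated higher and 367 in place of 355 lower.

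Notochord and floor plate genes ran the other way, with medians of 0.87 in Control 6, 0.55 in Ethanol 6 and -0.85 in Nicotine 6 over 6 of 11 genes. Shh, the signal secreted by these tissues, read 658, 562 and 59.2, all inside the range of 12.6 to 836 in numbers 1 to 5. Placental trophoblast genes, of which 7 of 31 were measured, summed to 398 in Control 6, 532 in Ethanol 6 and 3697 in Nicotine 6 against 661 to 42453 (median 891). Prl2c2, a placental prolactin of a family of close copies, read 5.75, 24.8 and 1585 in these embryos, with the highest of the 3 in Nicotine 6.

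Visceral yolk sac genes had the lowest median of all lists, at -0.93 over 15 of 23 genes, yet 1 gene only, Cited1, had all 3 embryos outside the range of numbers 1 to 5 (-1.15 ± 0.19). Ttr, a transport protein, differed by -2.55 ± 1.41 and Apoa1, an apolipoprotein, by -2.49 ± 1.32, with overlap in both. The summed intensity was 2998 in Control 6, 3377 in Ethanol 6 and 4019 in Nicotine 6, close to the median of numbers 1 to 5 (3562) in a range of 2647 to 44597. The part of yolk sac RNA in the other differences was not tested.

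Trunk and tail Hox genes, which mark position along the body and are switched on as the tail grows, were below 0 in 12 of 13 measured (24 listed), with medians of -1.13 in Control 6, -0.61 in Ethanol 6 and -0.26 in Nicotine 6. For none of them did all 3 embryos lie outside the range of numbers 1 to 5. Hoxc9 read 210, 231 and 599 against 457 to 1458 (-1.37 ± 0.27), and Hoxc10 read 117, 56.6 and 364 against 150 to 1556 (-1.77 ± 0.45; a second probe gave -1.38), so Control 6 and Ethanol 6 lay below the 15 and Nicotine 6 among them. Anterior Hox genes had a median of -0.17 and also no gene with all 3 embryos outside the range. Y-linked genes showed the labelled sex: Eif2s3y read 710, 775 and 837, Kdm5d 221, 210 and 199, and Uty 49.0, 46.7 and 64.04, each overlapping numbers 1 to 5.

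Genes separated lower spanned less of the genome than most genes on the array, a property that the rule did not use and that is given as a description. The genomic span of a gene, introns included, was taken from RefSeq annotation of GRCm38.p6 for 9669 of the 9683 genes. The median span was 4.1975 kb for genes separated lower, 34.6 kb for genes separated higher and 22.5 kb over all. Without the 15 histone genes the median of those separated lower was 4.78 kb.

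With genes split by span into 5 equal classes, from the shortest to the longest, the median difference was -0.25, -0.05, 0.06, 0.11 and 0.13. The shortest class (0.088 to 7.40 kb) held 138 of the 206 genes separated lower and 3 of the 48 separated higher. Across 9669 genes, which share the same arrays, Spearman's rho between span and difference was 0.36, and between mean level in numbers 1 to 5 and difference it was 0.01. For numbers 7 to 12 minus 1 to 5, which uses the same 15 embryos as its baseline, the rho with span was 0.09 and the medians of the 5 classes ran from 0.02 to 0.11.

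The same contrast was then taken embryo by embryo, as the median deviation of the shortest class minus that of the longest. It was -0.249 to -0.505 in the 3 embryos numbered 6, -0.165 to 0.247 in numbers 1 to 5 and -0.175 to 0.059 in numbers 7 to 12. Each embryo numbered 6 lay below all 33 others. Span goes with intron content, promoter class and gene function, and which of these the difference follows was not tested.

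**Figure D4:**
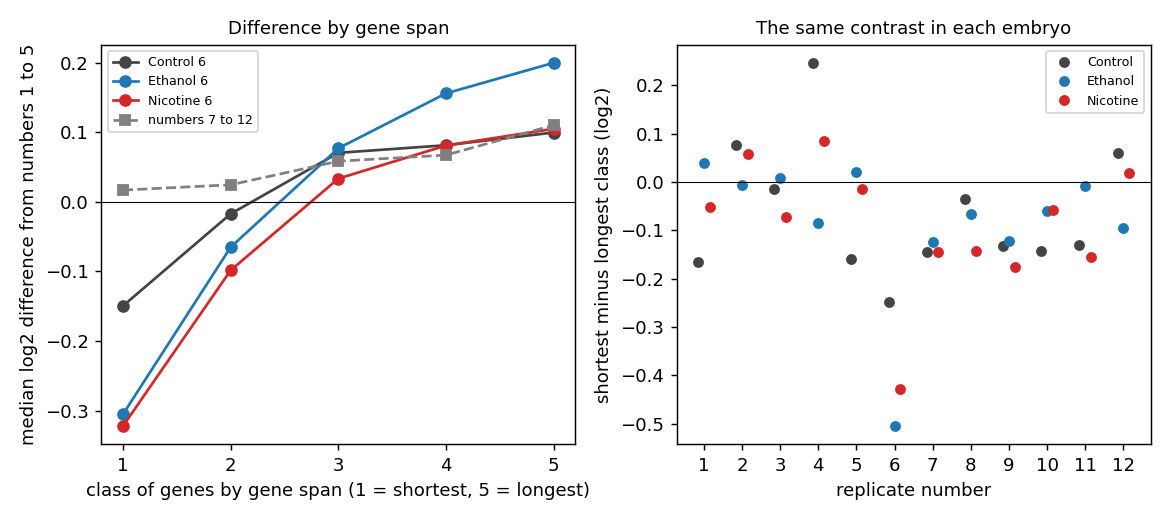
Left, median log2 difference from numbers 1 to 5 by class of gene span (1 = shortest, 5 = longest) for each embryo numbered 6 and for the mean of numbers 7 to 12. Right, the shortest class minus the longest (log2) in each of the 36 embryos by replicate number: number 6 lies at -0.505 to -0.249 and the others at -0.175 to 0.247.

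Numbers 7 to 12 are set beside these genes next. The 206 genes separated lower in number 6 had a median of -1.15 there and of -0.05 in numbers 7 to 12 minus 1 to 5. The 48 genes separated higher had a median of 1.14 in number 6 and of 0.66 in numbers 7 to 12 minus 1 to 5. In the second difference 41 of these 48 were above 0 and 12 were at 1 or more, against 5471 and 87 of all 9683 genes. Of the 206, 116 were below 0 there and 17 by 1 or more, against 4212 and 491 of all. The median over all genes was 0.05 for the second difference. Both differences share the 15 embryos numbered 1 to 5, so a shift of that baseline moves both, and no relation between them is read from these values.

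Whether treatment acted differently in number 6 is a question that the choice of embryos did not settle, and it was tested as an interaction with limma on the 18 embryos numbered 1 to 6. For nicotine 0 of 16927 probes (0.0%) passed an adjusted p of 0.05 (1144 had an unadjusted p under 0.05), and for ethanol 0 (0.0%) passed (562 unadjusted). With 1 embryo numbered 6 per treatment, the spread in this test comes from numbers 1 to 5. The named gene with the smallest p for nicotine was Cry2, a repressor of the circadian clock, which read 114 in Control 6 and 75.8 in Nicotine 6 within a range of 71.4 to 121 in numbers 1 to 5. Its nicotine difference was lower in number 6 by -0.95 ± 0.17 (limma adjusted p = 0.343).

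Next for nicotine were Rfxap, a regulator of MHC class II genes (-0.77 ± 0.17), and Mrps2, of the mitochondrial ribosome (-0.72 ± 0.16), both with a limma adjusted p of 0.705. For ethanol the smallest p belonged to Rtel1, a helicase of telomeres (0.77 ± 0.17), Mrm3, which methylates mitochondrial ribosomal RNA (-0.77 ± 0.18), and Cdip1, linked to p53-driven cell death (-0.75 ± 0.18), each with a limma adjusted p of 1. None of the 6 genes passed.

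The embryos numbered 6 did bear on how many probes were called for nicotine over all 12 numbers. Between 12 Nicotine and 12 Control embryos limma called 1 probe (0.00591%), that of Mllt3, a subunit of the super elongation complex named here because it was the single call (0.54, adjusted p = 0.0306). With the replicate number as a block it called 194 probes (1.15%), 113 higher (0.668%) and 81 lower (0.479%) with nicotine. Without number 6 both fits called 0 (0.0%), with 1130 and 2668 probes at an unadjusted p under 0.05. For Mllt3 the difference without number 6 was 0.53, with a limma adjusted p of 0.143, or 0.0539 with the block.

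The 194 probes had been chosen in a fit that held the other pairs too, so a likeness of their differences without number 6 follows largely from that choice. As a description, all 194 probes kept their sign without number 6, and their median size went from 0.407 to 0.395. Their limma adjusted p without number 6 started at 0.0539 and had a median of 0.0706, and 267 probes of all had one under 0.1. Number 6 was not alone in this: leaving out number 7 also gave 0 calls with the block, leaving out number 2 gave 1, and leaving out any other number gave 75 to 256. In the pair Nicotine 6 minus Control 6, 185 of the 194 probes had the called direction with a median of 0.511, between pair 2 (194 probes, 0.682) and pair 9 (140 probes, 0.117). Every pair entered the fit that chose these probes, so the counts by pair are no independent check of the calls.

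Tail and posterior genes were the highest named calls with nicotine. Hoxc10 was higher by 1.497 ± 0.31 with the block (limma adjusted p = 0.0215) and by 1.495 ± 0.33 without number 6 (limma adjusted p = 0.0542), and Nicotine 6 exceeded Control 6 by 1.51. Cdx2, a master regulator of posterior identity, was higher by 1.32 ± 0.31, Tbx6, needed for paraxial mesoderm, by 1.32 ± 0.29 and Evx1, of the primitive streak and tail bud, by 1.18 ± 0.29. For these genes pair 6 stood at 1.70, 1.56 and 1.64, within the range of the other 11 pairs.

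Among the lowest calls, 2 genes had their largest difference in pair 6. Ptx3, a secreted pattern-recognition protein, read 279 in Control 6 and 19.4 in Nicotine 6, a difference of -3.06, when the other 11 pairs ran from -2.15 to 0.50. Dlx1, a homeobox gene of branchial arches and forebrain, read 483 and 81.0, a difference of -2.36 against -1.13 to -0.11 in the others. Without number 6 the nicotine difference of Ptx3 went from -1.04 to -0.86 (limma adjusted p = 0.0843 with the block) and that of Dlx1 from -0.79 to -0.65 (limma adjusted p = 0.0735). Lamc3, a laminin chain (-0.80), and Tspan17, a tetraspanin (-0.73), had pair 6 values of -1.15 and -1.37, inside the range of the other pairs. For ethanol against Control limma called 0 probes (0.0%) in every fit, with or without number 6, and 177 had an unadjusted p under 0.05 in the fit on all numbers without the block.

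**Figure D5:**
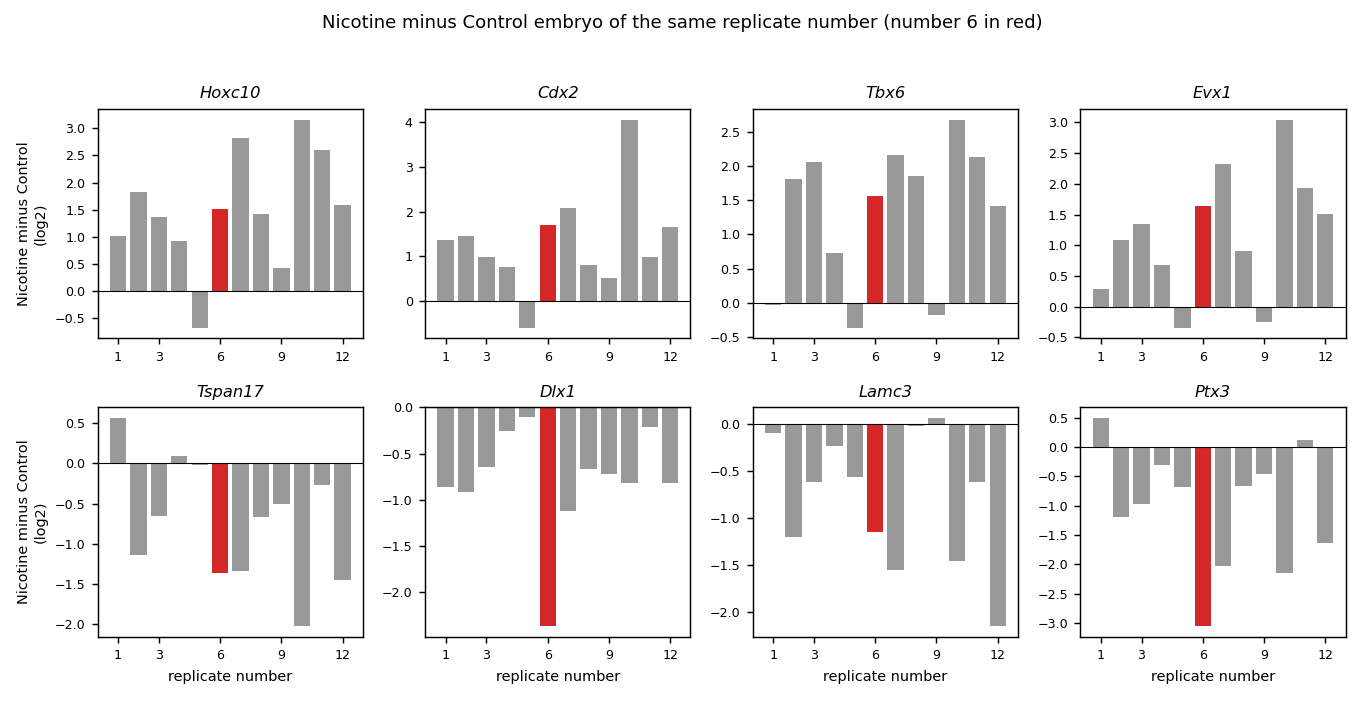
Nicotine minus Control embryo of the same replicate number (log2, vertical axis) for the 4 highest and 4 lowest named genes called with the replicate block, by replicate number, with number 6 in red. Pair 6 is the largest drop for Ptx3 (-3.06) and Dlx1 (-2.36) and lies among the others for Hoxc10 (1.51).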

How the data were processed

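The authors deposited linear intensities, 1 per probe and embryo. The submitters' processing notes name GenomeStudio 1.9.0. How background was corrected and arrays were normalized is not given in the sources used here. These deposited intensities have nearly the same distribution on every array (median 10.68 to 10.77, mean 357.7). A second table, before normalization, names its 72 columns by running numbers that match no label and was not used, so the alternative with another background correction was not run. The deposited values used here come without bead numbers, so precision is judged from the spread between arrays.

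Analysis used log2 of the deposited intensity plus 16. Of 45281 probes, 34885 have 1 symbol in the platform annotation, 18 several and 10378 none, and 14690 kept probes have 1 symbol. Differences were fitted with limma 3.58.1 in R 4.3.3 (lmFit, eBayes) with treatment as a term: on 18 arrays with 14 residual degrees of freedom for number 6 against 1 to 5, and with 12 for the interaction. Treatments were compared on all 36 arrays. Tests were two-sided with Benjamini-Hochberg adjustment over the 16927 kept probes, and the steps were tested on simulated data. Residuals are between single embryos whose shared litters are not labelled, so p-values measure the spread between these embryos.

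Deviations of same-numbered embryos from their treatment means correlated above 0.1 in all 36 pairs (mean 0.589, lowest 0.243). For number 6 the mean was 0.786 and the lowest 0.715. The split of the series on component 1 enters these values, and pairs of unlike numbers were not computed, so they do not show what a number shares. Within numbers 1 to 6, with treatment and number 6 in the model, a random replicate block had a consensus correlation of 0.00837. The numbers were used as a block in a second fit. That choice comes from the data, since the labels do not say what a number shares.

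The 3 embryos, the 63 gene lists, the separation rule and the comparisons were chosen with earlier results of these data known. Named were the 12 highest and 12 lowest separated genes, up to 3 separated genes or else the 2 largest differences of a list, the 3 smallest p of each interaction, the 4 highest and 4 lowest nicotine calls with the block, and the sex check genes. Clone-like and predicted names were counted and not named. Ttr and Apoa1 were named after their values were seen. Promoters and gene spans come from RefSeq tables of GRCm38.p6, and protein sequences were not used here.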

Additional observations from a re-analysis of the deposited data

How the results depend on the processing

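The number of separated probes (153 higher, 355 lower) depended on the constant added before the logarithm: with 1 it was 270 higher and 469 lower, and with 64 it was 49 higher and 175 lower. Leaving out single embryos numbered 6, single numbers from 1 to 5, Nicotine 1 or Nicotine 3 (both chosen after seeing the data) gave 74 to 301 higher and 319 to 420 lower: 301 higher without Control 6, 74 without Nicotine 6, and 120 and 361 without Nicotine 1. Cyclic loess gave 131 and 367. No filter and a filter at 100 stayed within 1.5 times. The 33 separated named genes kept their sign in all 493 alternative values, 7 of which moved by over 1 SD, and the 9 list medians of 0.3 or more in size kept theirs in all 134. For the limma count over number 6 against 1 to 5, a random replicate block (consensus correlation 0.00837) gave 6368 probes in place of 6445.

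The interaction of nicotine with number 6 passed in 0 probes, and in 1 without the filter on dim probes, that of Cts7, a placental cathepsin of a family of close copies (1.03 ± 0.12, limma adjusted p = 0.0199). The ethanol interaction passed in 0 probes under every alternative run, the replicate block included. Nicotine against Control gave 1 probe, 0 without replicate 6, 0 without the filter and 194 with the replicate block. With the block and 1 number left out, the count ran from 0 to 256: 194, 1, 131, 204, 231, 0, 0, 152, 256, 75, 147 and 146 without numbers 1 to 12 in turn. Why the count falls without numbers 2, 6 and 7 was not tested, beyond fewer embryos entering the fit. Ethanol against Control gave 0 throughout. With the block, the interaction counts stayed at 0; the separation rule is no test and has no blocked fit. An array has no read depth. In number 6, dim probes such as H2ac8 and Cox7b lie near the limit of 32, and those of Apoc1 and Cep295 lie around or under it.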
